A study of Mus musculus with 10 samples.

Results

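The expression of 33 genes of endothelial cells, the cells that line blood and lymph vessels, was followed in mouse bone and cartilage libraries. The genes were taken by name from both deposited expression tables, and 32 of the 33 had a row of their own in each, out of 22645 distinct names in the osteoblast table and 22583 in the chondrocyte table. The remaining gene, Ramp2, shared a row with its neighbour Vps25 and was not counted. RNA had been sequenced in 10 libraries. A pair of libraries came from calvarial osteoblasts, the bone-forming cells of the skull, with the genotype Runx2_cHom_KO (E17.5, strain C57BL/6), and another pair from such cells of the same strain and age with the genotype Runx2_cHet_KO. Rib chondrocytes of ICR mice at postnatal day 1 gave 3 libraries of a sort for the Col10a1-mCherry transgene (Col10+, hypertrophic cartilage) and 3 of a sort for the Col2a1-ECFP transgene (Col2+). The names of the osteoblast genotypes read as homozygous and heterozygous conditional knockouts of Runx2, the transcription factor required for bone formation. The labels give neither the Cre driver nor the alleles, and they name no wild-type library. The osteoblasts were released from dissected bone with collagenase and dispase, and the labels give no sort for them. Whether libraries came from separate animals is stated by no label, and p-values therefore reflect library-to-library spread that may be technical.

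Endothelial cells hold to each other through VE-cadherin (Cdh5) and PECAM-1 (Pecam1) and respond to angiopoietins through the receptor Tie2, encoded by Tek, with its partner Tie1. Their identity rests on transcription factors of the ETS family, such as Erg and Fli1, and of the SoxF family, Sox7, Sox17 and Sox18. Bone is rich in vessels, whose endothelium in mice includes capillaries with high endomucin (Emcn) and PECAM-1 next to forming bone and sinusoids of the marrow, while cartilage itself has none. Several of the genes are not limited to endothelium: Stab1, Lyve1 and Cd93 are also known from macrophages or other myeloid cells, Cd34 and Tal1 from blood progenitors, Cd34 from stromal cells and Angpt1 from mesenchymal and perivascular cells.

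All values were FPKM, fragments scaled to transcript length and to the number of mapped fragments, with a value for each osteoblast library and 1 group value for each chondrocyte sort. Total depth was unknown. From the FPKM steps of rarely read genes, 1 read in Runx2_cHet_KO library 1 was worth between 0.797 and 0.847 times a read in each of the other osteoblast libraries, so that library was the deepest. Runx2 itself was at 32.9 and 32.6 FPKM in the Runx2_cHom_KO libraries, against 43.4 and 53.9 FPKM in the Runx2_cHet_KO libraries (log2 change -0.55, limma adjusted p = 0.0707; two-sided exact permutation p = 0.333, the smallest that 2 libraries against 2 allow). A level over the whole gene does not show whether exons were deleted. Col10a1 was at 2895 FPKM in the Col10+ sort and 59.5 FPKM in the Col2+ sort. The osteoblast gene Col1a1 was abundant in the calvarial libraries (between 7413 and 10274 FPKM), but not every osteoblast gene was. Sp7 was at 12.8 and 11.5 FPKM in Runx2_cHom_KO and at 39.8 and 50.7 FPKM in Runx2_cHet_KO. Bglap was listed at 0 in both Runx2_cHom_KO libraries and was at 21.7 and 32.6 FPKM in Runx2_cHet_KO.

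The first comparison set calvarial osteoblasts of the Runx2_cHom_KO genotype against those of the Runx2_cHet_KO genotype. Most endothelial cell genes were at higher levels in both Runx2_cHom_KO libraries than in either Runx2_cHet_KO library, and 3 passed the test: Tek, Cd34 and Esam. For 22 of the 32 genes both Runx2_cHom_KO libraries lay above both Runx2_cHet_KO libraries, and for 0 both lay below, while over all 22645 names these shares were 20.5% and 19.1%. In limma's fit across 11909 genes, on log2(FPKM + 1) with a call at an adjusted p under 0.05 and a change of at least 1 in size, 27 of the 32 reached the filter of 1 FPKM in 2 libraries. Of these, 3 were called higher and 0 lower, beside 2.30% and 1.39% of all genes tested. The median change over all 32 genes, filter or not, was 0.73 on the log2 scale, beside 0.00 over all names. An unadjusted p under 0.05 was reached by 17 of the 27, all with a higher value in Runx2_cHom_KO, beside 12.7% of all genes tested that did so on that side. Sox17, Arhgef15, Stab2, Nos3 and Tal1 were too low to be tested, and Sox18, Vwf, Icam2 and Clec14a passed the filter only through Runx2_cHom_KO, so these counts of tested genes are descriptions. In bulk libraries fewer cells of a type and less RNA per cell cannot be told apart.

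**Figure D1:**
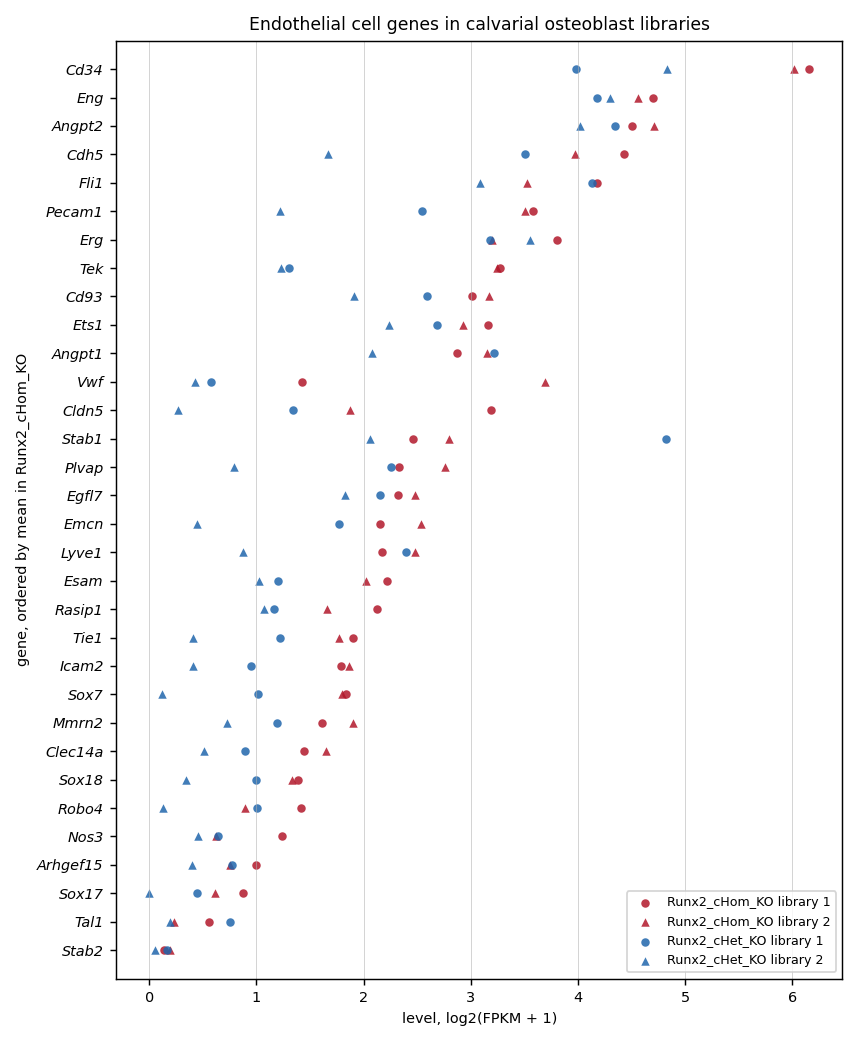
Levels of the 32 endothelial cell genes in calvarial osteoblasts, 1 row a gene, as log2(FPKM + 1) in each of the 2 Runx2_cHom_KO libraries (red) and 2 Runx2_cHet_KO libraries (blue; circles library 1, triangles library 2). For 22 genes both red points lie right of both blue points, and the blue triangle is the lowest point for 29.

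The Tie receptors and their ligands differed among themselves. Tek, the angiopoietin receptor, was at 8.64 and 8.48 FPKM in the Runx2_cHom_KO libraries, against 1.46 and 1.35 FPKM in the Runx2_cHet_KO libraries. Libraries of 1 genotype lay close together and the genotypes far apart: Tek rose by 1.99 on the log2 scale with a standard error of 0.15 (limma adjusted p = 0.00961), a ratio of mean FPKM of 6.09. Tie1, the related receptor, was at 2.73 and 2.41 FPKM in Runx2_cHom_KO, against 1.33 and 0.327 FPKM in Runx2_cHet_KO. Its groups were apart too, but the Runx2_cHet_KO libraries differed 4.06-fold, and the change of 1.02 (SE 0.31) did not pass (limma adjusted p = 0.107). The ligand Angpt2 was at 21.7 and 25.2 FPKM in Runx2_cHom_KO, against 19.3 and 15.2 FPKM in Runx2_cHet_KO (change 0.42, limma adjusted p = 0.154). Angpt1, the activating ligand, was at 6.32 and 7.90 FPKM in Runx2_cHom_KO and at 8.31 and 3.21 FPKM in Runx2_cHet_KO, with overlapping groups. Both ligands stood above Tie1 in level per length in all 4 libraries, and Tek stood above Tie1 in all 4.

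Among 6 junction and adhesion genes Esam alone passed in the fit of all 4 libraries. This immunoglobulin-family junction protein was at 3.66 and 3.05 FPKM in Runx2_cHom_KO, against 1.29 and 1.03 FPKM in Runx2_cHet_KO. It rose by 1.01 (SE 0.19, limma adjusted p = 0.0407), just past the limit of 1, and without Runx2_cHet_KO library 2 the change of 0.92 did not pass (limma adjusted p = 0.0638; between 0.0409 and 0.311 over all alternatives). Cdh5, which holds endothelial cells together, was at 20.6 and 14.7 FPKM in Runx2_cHom_KO, against 10.4 and 2.17 FPKM in Runx2_cHet_KO. Pecam1, a shared adhesion molecule of endothelium, platelets and leukocytes, was at 10.96 and 10.4 FPKM in Runx2_cHom_KO, against 4.83 and 1.33 FPKM in Runx2_cHet_KO. Cldn5, the tight-junction claudin of endothelium, was at 8.12 and 2.67 FPKM in Runx2_cHom_KO and at 1.54 and 0.206 FPKM in Runx2_cHet_KO. In these 3 genes the groups did not overlap, but Runx2_cHet_KO library 1 stood 4.78-fold, 3.62-fold and 7.49-fold over library 2, and their changes of 1.62, 1.66 and 1.72 had limma adjusted p of 0.266, 0.0926 and 0.142. Icam2, an endothelial ligand of leukocyte integrins, was at 2.46 and 2.64 FPKM in Runx2_cHom_KO, against 0.936 and 0.331 FPKM in Runx2_cHet_KO, and lay just outside the threshold (change 1.15, limma adjusted p = 0.0548). Robo4, an endothelial guidance receptor, overlapped between the genotypes, with 1.68 and 0.857 FPKM in Runx2_cHom_KO and 1.002 and 0.0906 FPKM in Runx2_cHet_KO.

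Of 9 surface and secreted glycoproteins all lay higher in both Runx2_cHom_KO libraries, beside 26.7% of all genes tested, and Cd34 passed. Cd34, a sialomucin of endothelium, blood progenitors and some stromal cells, was at 70.4 and 63.6 FPKM in Runx2_cHom_KO, against 14.8 and 27.4 FPKM in Runx2_cHet_KO. It rose by 1.68 (SE 0.28, limma adjusted p = 0.0362) and had the highest mean of the 32 genes in both genotypes. The call was lost with no filter on low values (limma adjusted p = 0.0628), with the replicate number as a term (0.0610) and without either Runx2_cHom_KO library (0.280 and 0.241), within a range of adjusted p between 0.00273 and 0.280 over all alternatives. Cd34, like Eng and Erg, was lower in Runx2_cHet_KO library 1 than in library 2, while the 28 other genes above 0 in both were higher there. Emcn, an endothelial sialomucin, was at 3.45 and 4.81 FPKM in Runx2_cHom_KO, against 2.40 and 0.358 FPKM in Runx2_cHet_KO. Plvap, which forms the diaphragms of fenestrated endothelium, was at 4.04 and 5.78 FPKM in Runx2_cHom_KO, against 3.77 and 0.727 FPKM in Runx2_cHet_KO. For both of these Runx2_cHet_KO library 1 lay nearer to the Runx2_cHom_KO libraries than library 2 did, and neither passed (limma adjusted p = 0.165 and 0.277). Eng, the co-receptor endoglin, was at 25.0 and 22.6 FPKM in Runx2_cHom_KO, against 17.1 and 18.6 FPKM in Runx2_cHet_KO, a change of 0.40 with the 2 Runx2_cHet_KO libraries close together (limma adjusted p = 0.100). Vwf, the clotting factor stored by endothelium and platelets, had the largest change of the tested genes, 2.06 with a standard error of 0.80. Its Runx2_cHom_KO libraries lay far apart, at 1.69 and 11.9 FPKM, against 0.487 and 0.345 FPKM in Runx2_cHet_KO (limma adjusted p = 0.207). Cd93, Clec14a and Mmrn2, which lie together at the endothelial surface, had changes of 0.84, 0.85 and 0.80, and Egfl7, a secreted vessel protein, one of 0.41, none of them past the test.

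The promoters of Tek and Cd34 are shown because these genes had the largest changes among those called. Each line gives the 250 bases before the RefSeq start on the plus strand of build GRCm38.p6, at chr4:94739039-94739288 for Tek and chr1:194938571-194938820 for Cd34, with the ETS core GGAAG and the Runx core TGTGGT, searched on both strands, in capitals.
Tek: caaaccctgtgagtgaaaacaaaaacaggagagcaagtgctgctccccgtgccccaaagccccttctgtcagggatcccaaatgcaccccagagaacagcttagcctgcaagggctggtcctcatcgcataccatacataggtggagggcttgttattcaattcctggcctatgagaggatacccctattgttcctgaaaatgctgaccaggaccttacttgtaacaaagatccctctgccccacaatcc
Cd34: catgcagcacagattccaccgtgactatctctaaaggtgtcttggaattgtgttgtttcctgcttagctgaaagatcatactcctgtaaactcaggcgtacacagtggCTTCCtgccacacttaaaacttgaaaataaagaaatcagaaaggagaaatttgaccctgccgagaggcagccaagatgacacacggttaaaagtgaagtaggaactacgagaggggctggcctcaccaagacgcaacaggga
The Cd34 window held 1 ETS core, read on the opposite strand, and the Tek window 0, and neither held the Runx core. RefSeq promoters were matched for 14 of the 33 genes, with 19 start sites. Of these 19 windows 14 held the ETS core and 1, at Stab2, the Runx core, while 64.1% and 14.0% of all 32851 windows did. The cores do not overlap each other in letters, and a match is a description of the sequence only.

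None of the transcription factors passed. Sox7 was at 2.56 and 2.48 FPKM in Runx2_cHom_KO, against 1.03 and 0.0824 FPKM in Runx2_cHet_KO (change 1.25, limma adjusted p = 0.0839). Its relative Sox18 was at 1.61 and 1.51 FPKM in Runx2_cHom_KO, against 0.992 and 0.265 FPKM in Runx2_cHet_KO (change 0.69, limma adjusted p = 0.185). Sox17, below the filter, was at 0.833 and 0.531 FPKM in Runx2_cHom_KO and at 0.358 FPKM in Runx2_cHet_KO library 1, and was listed at 0 in library 2. All 3 SoxF genes were thus higher in both Runx2_cHom_KO libraries and lowest in Runx2_cHet_KO library 2. The ETS factors stood higher in level. Erg was at 13.0 and 8.19 FPKM in Runx2_cHom_KO and at 8.04 and 10.7 FPKM in Runx2_cHet_KO, and Fli1 was at 17.1 and 10.5 FPKM in Runx2_cHom_KO and at 16.5 and 7.50 FPKM in Runx2_cHet_KO. Both overlapped between the genotypes, with changes of 0.14 and 0.24. Ets1, which lymphocytes and stromal cells also use, had a change of 0.59 (limma adjusted p = 0.141). Tal1, a factor of blood and vessel progenitors, stayed under 0.7 FPKM in every library.

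Stab1 went against the rest. This scavenger receptor of sinusoidal endothelium and macrophages was at 4.51 and 5.95 FPKM in Runx2_cHom_KO and at 27.2 and 3.16 FPKM in Runx2_cHet_KO, the one tested gene of the 27 with a change below 0 (-0.81, SE 1.11, limma adjusted p = 0.704). Only Runx2_cHet_KO library 1 was high. Without that library the change was 0.57 (limma adjusted p = 0.169), and without Runx2_cHet_KO library 2 it was -2.19 and called lower (limma adjusted p = 0.00713; between 0.00713 and 0.895 over all alternatives). Summed over 12 macrophage markers, the Runx2_cHom_KO libraries held 80.7 and 102 FPKM, and the Runx2_cHet_KO libraries held 469 FPKM in library 1 and 70.7 FPKM in library 2, and none of these markers was at 0 in any of the 4. The part of macrophages in the Stab1 value was not tested. Stab2, the related receptor of sinusoidal endothelium, stayed at 0.142 FPKM or less in all 4 libraries. Lyve1, the hyaluronan receptor of lymphatic vessels and some macrophages, was at 3.50 and 4.56 FPKM in Runx2_cHom_KO and at 4.26 and 0.838 FPKM in Runx2_cHet_KO, with overlapping groups. The signalling proteins were low: Rasip1, a regulator of vessel lumens, was at 3.35 and 2.15 FPKM in Runx2_cHom_KO, against 1.24 and 1.10 FPKM in Runx2_cHet_KO (limma adjusted p = 0.104). The nitric oxide synthase Nos3 and the exchange factor Arhgef15 stayed below the filter with overlapping groups. The joint row of Vps25 and Ramp2, a receptor-activity modifier for adrenomedullin, was at 54.5 and 62.9 FPKM in Runx2_cHom_KO, against 45.4 and 53.7 FPKM in Runx2_cHet_KO, and its share from Ramp2 is unknown.

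**Figure D2:**
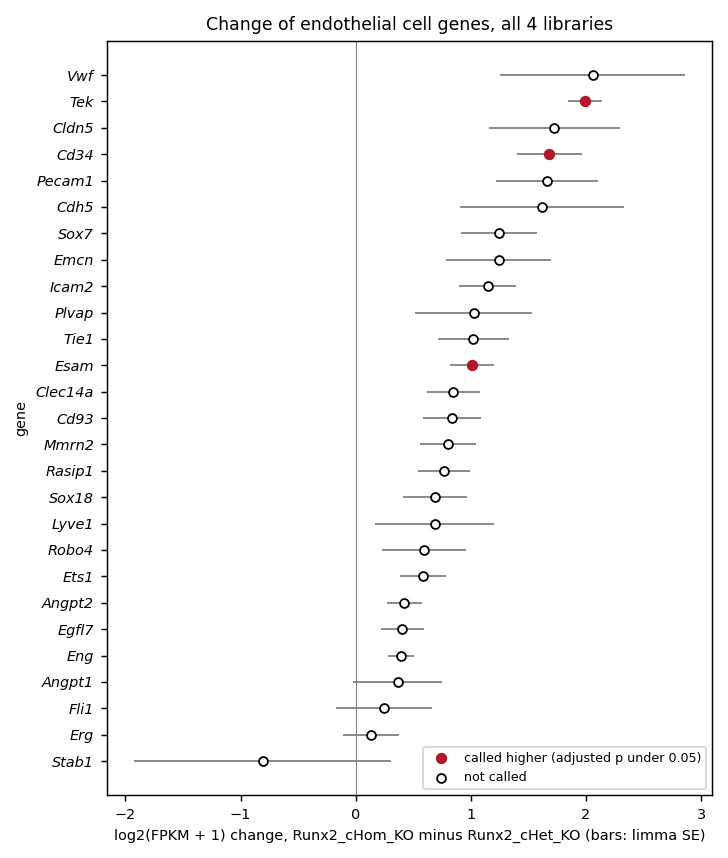
Change of the 27 endothelial cell genes tested in calvarial osteoblasts, as log2(FPKM + 1) in Runx2_cHom_KO minus Runx2_cHet_KO from limma over all 4 libraries, with bars of 1 standard error. Red points, Tek, Cd34 and Esam, were called higher, and Stab1 is the one value below 0.

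The Runx2_cHet_KO libraries differed from each other in these genes. Of 31 genes above 0 in both, 28 were higher in Runx2_cHet_KO library 1 than in library 2 and 18 at least 2-fold higher, with a median ratio of 2.201. Among all genes tested 44.9% were higher in library 1 and 4.31% at least 2-fold higher, with a median ratio of 0.974. Runx2_cHet_KO library 2 was the lowest of the 4 libraries for 29 of the 32 genes, beside 21.3% of all genes tested. Between the Runx2_cHom_KO libraries the median ratio was 1.06, and 3 genes were at least 2-fold higher in library 1 and 1 in library 2. The mean of Runx2_cHom_KO was above Runx2_cHet_KO library 1 for 27 of 32 genes (median ratio 1.64), beside 49.6% of all genes tested and above 0 there. It was above library 2 for 30 of 31 (median ratio 3.25), beside 45.2%. The contrast between genotypes was therefore smaller against Runx2_cHet_KO library 1 than against library 2. For Fli1, Lyve1, Stab1, Angpt1 and Tal1 it ran the other way against library 1. That library was also the deepest, and the part of depth in this difference was not tested.

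**Figure D3:**
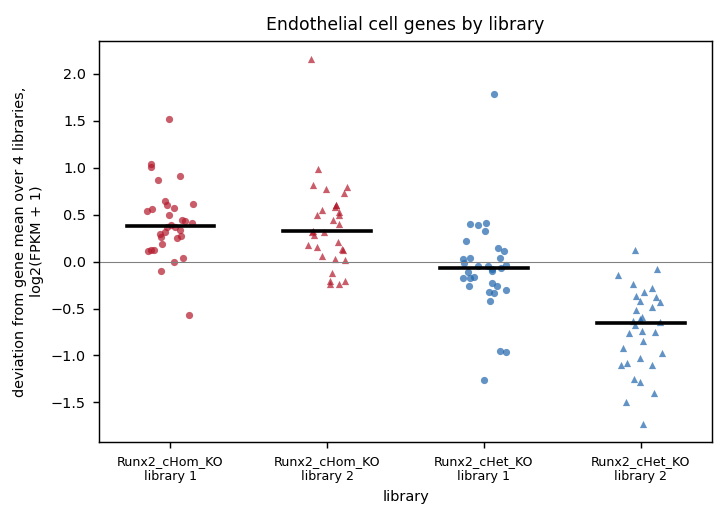
Deviation of each of the 32 endothelial cell genes from its own mean over the 4 osteoblast libraries, in log2(FPKM + 1), with points for genes and black lines for medians. The medians lie at 0.38 and 0.32 in the Runx2_cHom_KO libraries and at -0.07 and -0.66 in the Runx2_cHet_KO libraries, and the highest Runx2_cHet_KO library 1 point is Stab1.

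The number of calls changed with the libraries used. Without Runx2_cHet_KO library 1 limma called 12 of 26 tested endothelial cell genes higher, beside 3.42% of all genes, and 0 lower, beside 1.40%. These were Cd34, Cd93, Cdh5, Emcn, Esam, Icam2, Lyve1, Pecam1, Plvap, Sox7, Tek and Tie1. Without Runx2_cHet_KO library 2 it called Cd34, Pecam1 and Tek higher, beside 2.98% of all genes, and Stab1 lower, beside 2.32%. Leaving out Runx2_cHom_KO library 1 ended every call: 0 of 22 genes passed in limma, and 4 had an unadjusted p below 0.05. Leaving out Runx2_cHom_KO library 2 did the same, with 0 of 23 passing in limma and 6 below that unadjusted value. Over all genes tested limma then called 0 and 1. In each of these 4 fits the single library is assumed to vary like the other group. Without Runx2_cHet_KO library 1, Emcn, Icam2, Lyve1, Plvap, Sox7 and Tie1 passed the filter only through Runx2_cHom_KO. The calls of that fit are therefore descriptions. With low genes kept in the fit, Tek alone of these genes was called higher and 0 lower, beside 0.836% and 0.519% of 18312 genes. With the replicate number as a term, which the labels do not tie to a shared source, Tek and Cldn5 were called higher and 0 genes of the set lower, beside 1.46% and 0.999% of all genes. The changes of Tek stayed between 1.96 and 2.02 and those of Cd34 between 1.26 and 2.11 with any 1 library left out.

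Further genes of endothelium gave a mixed picture. Of 52 listed, 50 were in the osteoblast table and 35 tested. Of these 4 were called higher and 2 lower, beside 2.30% and 1.39% of all genes tested. Among the 50, 33 lay higher in both Runx2_cHom_KO libraries and 4 lower, beside 20.5% and 19.1% of all names. The median change of the 50 was 0.49, beside 0.00 over all names. Ptprb, the phosphatase that acts on Tie2 and VE-cadherin, was at 3.55 and 3.05 FPKM in Runx2_cHom_KO, against 0.696 and 0.604 FPKM in Runx2_cHet_KO, and rose by 1.38 (limma adjusted p = 0.0208). The Notch targets Hey1 and Heyl rose by 1.37 and 1.14, and Flt1, the VEGF receptor that acts as a decoy, by 1.16 (limma adjusted p = 0.0365, 0.0339 and 0.0342). Nrp2, a co-receptor of lymphatic vessels, axons and other cells, fell by 1.05 (limma adjusted p = 0.0176), to 53.5 and 58.8 FPKM in Runx2_cHom_KO, against 107 and 129 FPKM in Runx2_cHet_KO. Rgcc, a cell cycle regulator, fell by 1.10 (limma adjusted p = 0.0428). The transcription factors Klf4 and Klf2 were the most abundant of this list and are in use far outside endothelium. Their changes of 0.84 and 0.89 (limma adjusted p = 0.0172 and 0.0208) were under the limit of 1, so neither was called. Among 11 mural genes, of the pericytes and smooth muscle around vessels, 3 were called higher and 0 lower, beside the same 2.30% and 1.39%. They were Myh11 (1.41), Des (1.23) and Abcc9 (1.09), while Acta2 and Pdgfrb, the most abundant of the list, were not called (-1.04 and 0.38). Ptprb and Myh11 passed the filter only through Runx2_cHom_KO, so the counts of both lists are descriptions.

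Markers of other cells in the same libraries were measured beside these genes. The 11 erythroid genes, 7 of them in the table, summed to 464 and 163 FPKM in Runx2_cHom_KO and to 472 and 28.6 FPKM in Runx2_cHet_KO, with 0 of 2 tested called. Most of each sum was 1 gene, Beta-s, at 454 and 160 FPKM in Runx2_cHom_KO and 459 and 25.8 FPKM in Runx2_cHet_KO. Alas2, the other tested gene, was at 9.33 and 2.49 FPKM in Runx2_cHom_KO and 11.1 and 2.24 FPKM in Runx2_cHet_KO. Thus Runx2_cHet_KO library 2, lowest in endothelial cell genes, was also lowest in the erythroid and macrophage sums, and 1 or 2 erythroid genes were listed at 0 in each of the 4 libraries. The mural sum ran the other way, with 179 and 145 FPKM in Runx2_cHom_KO and 146 and 224 FPKM in Runx2_cHet_KO. It was highest in Runx2_cHet_KO library 2, where Acta2 was at 81.0 FPKM and Tagln at 51.5 FPKM. By gene the mural list did not run the other way. For 7 of its 11 genes both Runx2_cHom_KO libraries lay above both Runx2_cHet_KO libraries and for 2 below, beside 20.5% and 19.1% of all names. Leukocyte genes (8 in the table) summed to 8.06 and 12.5 FPKM in Runx2_cHom_KO and to 50.1 and 7.20 FPKM in Runx2_cHet_KO, with 0 of 3 called. Of 12 macrophage genes 0 were called, and of platelet genes 0 of 1 tested. The platelet genes Gp9, Itga2b, Gp1ba and Gp6 stayed under 1 FPKM in all 4 libraries, while Pf4, which macrophages can also make, was at 28.2 and 29.9 FPKM in Runx2_cHom_KO and 99.4 and 14.8 FPKM in Runx2_cHet_KO. Neutrophil genes summed to at most 3.01 FPKM and none was tested. Skeletal muscle genes were higher in Runx2_cHom_KO: the 8 genes summed to 43.3 and 60.1 FPKM there, against 1.30 and 3.22 FPKM in Runx2_cHet_KO. Of 6 tested, 6 were called higher (Acta1, Mylpf, Tnnt3, Myog, Myh8 and Ckm), beside 2.30% of all genes tested. Mylpf, Myog, Myh8 and Ckm passed the filter only through Runx2_cHom_KO, so this count is a description. Of 11 osteoblast genes 4 were called lower, Bglap, Dmp1, Spp1 and Sp7, and 0 higher, beside 1.39% and 2.30% of all genes tested. Bglap passed the filter only through Runx2_cHet_KO, so this count too is a description. Of 7 chondrocyte genes 0 were called. The part of these other cells in the endothelial values was not tested.

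**Figure D4:**
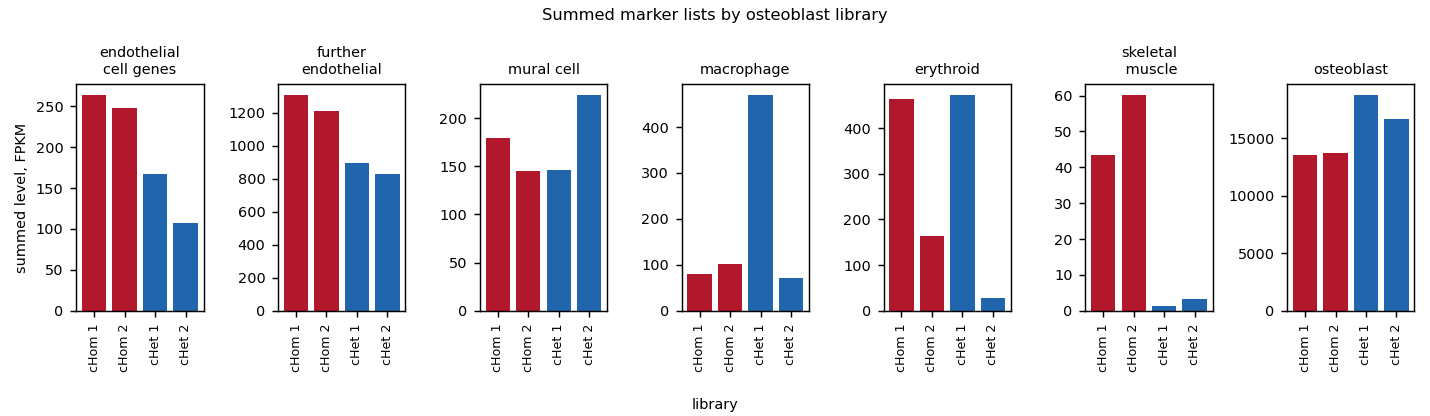
Summed FPKM of 7 marker lists in the 4 osteoblast libraries (red Runx2_cHom_KO, blue Runx2_cHet_KO; each panel has its own axis from 0). Endothelial cell genes sum to 264 and 248 FPKM in Runx2_cHom_KO and to 167 and 107 FPKM in Runx2_cHet_KO, and the macrophage list is high in Runx2_cHet_KO library 1 alone.

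The second comparison set the Col10+ rib sort against the Col2+ rib sort, each with 1 group value from the authors and so with no test. Genes that mark endothelium were nearly absent from the Col2+ sort and present in the Col10+ sort. The Col10+ value was the higher one for 31 of the 32 genes, beside 39.4% of all 22583 names, and Erg was the exception. A gene was counted as past the fold where log2(FPKM + 1) differed by at least 1 and a sort held 5 FPKM or more. Of the 32 genes 14 were past it, all higher in Col10+, 3 were at 5 FPKM or more but not past it, and 15 were under 5 FPKM in both sorts, beside 13.8% higher and 14.2% lower among 8354 genes at that level. All 14 were under 5 FPKM in Col2+ and reached the floor only through Col10+, so their share among genes at the floor is set by the floor and is no support. At a floor of 1 FPKM 25 of the 32 were past the fold upwards and 0 downwards, beside 16.3% and 10.8% of 11876 genes. All of these 25 but Fli1 and Egfl7 reached that floor only through Col10+, so this share is no support either. The median difference over the 32 genes, floor or not, was 2.35 on the log2 scale, beside 0.00 over all names. In the Col10+ sort 28 of the 32 genes were at 1 FPKM or more, and in the Col2+ sort 5 were: Ets1, Erg, Eng, Fli1 and Egfl7.

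**Figure D5:**
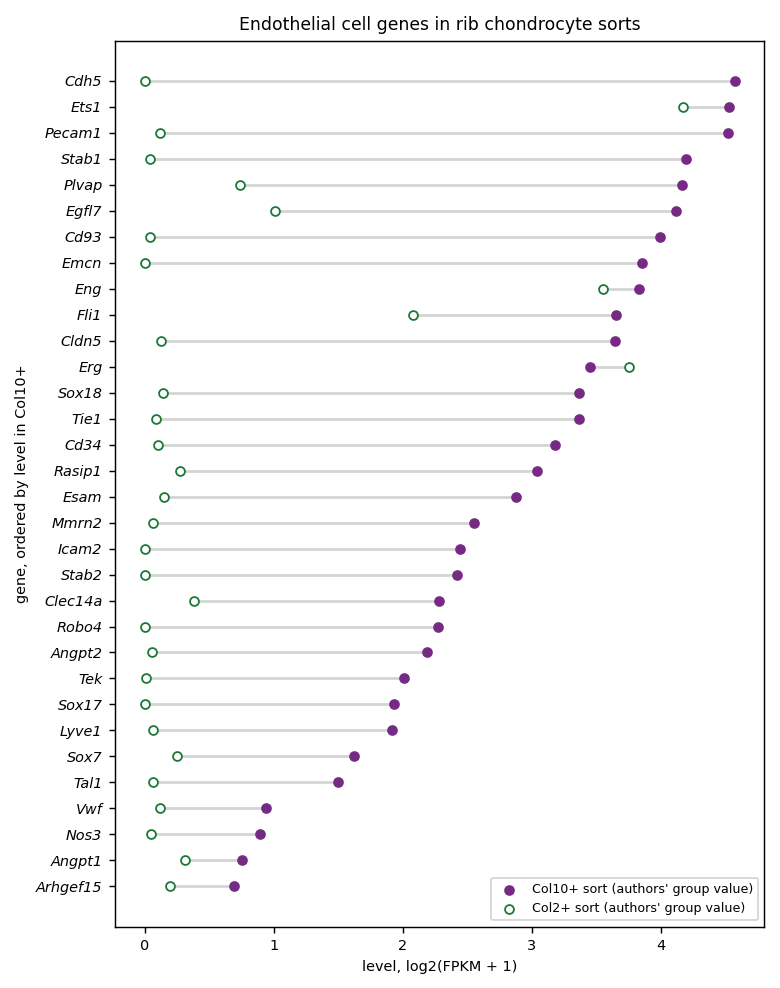
Levels of the 32 endothelial cell genes as log2(FPKM + 1) in the Col10+ sort (filled) and the Col2+ sort (open) of rib chondrocytes, the authors' group values, with a line joining the 2 sorts. Open points lie below 1 on this scale for 27 genes, and Ets1, Eng and Erg have both points close together.

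Junction and adhesion genes, Tie1 and Sox18 were near 0 in the Col2+ sort. Cdh5 was at 22.8 FPKM and Emcn at 13.4 FPKM in the Col10+ sort, and both were listed at 0 in the Col2+ sort, as were Icam2, Robo4 and Sox17, which were at 4.43, 3.84 and 2.82 FPKM in Col10+. Pecam1 was at 21.9 FPKM in Col10+ and 0.0844 FPKM in Col2+, and Tie1 was at 9.31 FPKM in Col10+ and 0.0627 FPKM in Col2+. Cldn5 reached 11.5 FPKM, Sox18 9.32 FPKM, Rasip1 7.20 FPKM and Esam 6.33 FPKM in Col10+, each with 0.212 FPKM or less in Col2+. A second, less abundant row of Rasip1, not used, was at 0.110 FPKM in Col10+ and 0.462 FPKM in Col2+. Over the 12 genes past the fold with a Col2+ value above 0, the ratio of Col10+ to Col2+ ran from 3.60 for Fli1 to 564 for Stab1. The ratios rest on Col2+ values of a fraction of 1 FPKM for all of them but Fli1 and Egfl7.

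Surface glycoproteins and scavenger receptors ranged widely in Col10+. Plvap was at 16.9 FPKM in Col10+ and 0.672 FPKM in Col2+, Stab1 at 17.3 FPKM in Col10+ and 0.0307 FPKM in Col2+, and Stab2, under the floor of 5 FPKM, at 4.35 FPKM in Col10+ and 0.00343 FPKM in Col2+. Cd93 was at 14.9 FPKM in Col10+ and 0.0320 FPKM in Col2+, and Egfl7 at 16.3 FPKM in Col10+ and 1.01 FPKM in Col2+. Tek stood lower, at 3.03 FPKM in Col10+ and 0.00534 FPKM in Col2+, also under that floor. Cd34 was at 8.05 FPKM in Col10+ and 0.0720 FPKM in Col2+. Angpt1, Arhgef15, Nos3 and Vwf stayed under 1 FPKM in both sorts.

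Ets1, Erg and Eng, which other cells also use, lay within 2-fold between the sorts. Ets1 was at 22.02 FPKM in Col10+ and 17.0 FPKM in Col2+, and Erg, which articular and resting chondrocytes also express, was at 9.92 FPKM in Col10+ and 12.5 FPKM in Col2+. Eng was at 13.2 FPKM in Col10+ and 10.7 FPKM in Col2+. Fli1 was at 11.6 FPKM in Col10+ and 3.22 FPKM in Col2+. In the Col2+ sort these 4 genes therefore stood at 3.22 to 17.0 FPKM while Cdh5, Emcn, Icam2, Robo4 and Sox17 were listed at 0. An exact 0 can also be a failed estimate in such tables.

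Blood-cell markers were high in the same Col10+ sort. Of 12 macrophage genes 12 were past the fold upwards, of 8 neutrophil genes 8, of 4 erythroid genes at 5 FPKM 4, and of 6 leukocyte genes 6, with 0 lower. Among all genes at 5 FPKM or more, 13.8% were past it upwards and 14.2% downwards. The blood-cell genes counted were all under 5 FPKM in Col2+ and reached the floor only through Col10+. Their counts are thus set by the floor and are no support. The macrophage list summed to 1800 FPKM in Col10+ and 3.65 FPKM in Col2+, with 0 and 6 of its 12 genes listed at 0, and the neutrophil list to 3941 FPKM in Col10+ and 0.262 FPKM in Col2+. The 32 endothelial cell genes summed to 272 FPKM in Col10+ and 47.1 FPKM in Col2+. The platelet gene Pf4 was past the fold, while Gp9, Itga2b, Gp1ba and Gp6 stayed under 1 FPKM in both sorts. Osteoblast genes had 8 of 11 higher and 2 lower, chondrocyte genes 1 of 6 higher and 1 lower, muscle genes 2 of 2 higher, and mural genes 1 of 4 higher, Acta2. Further endothelial genes had 15 of 27 higher and 5 lower. Among the higher ones the widest differences were those of Vcam1, Lmo2, Aqp1, Gpr116, Lyl1 and Nrp2. Vcam1, an adhesion molecule that binds leukocytes, was at 35.5 FPKM in Col10+ and 0.464 FPKM in Col2+. Lmo2, a partner of Tal1, was at 17.98 FPKM in Col10+ and was listed at 0 in Col2+. The 5 lower ones were Klf2, Klf4, Cav1, Elk3 and Foxc2, all of which cells other than endothelium use. Of the 15 higher further endothelial genes all but Procr were under 5 FPKM in Col2+ and reached the floor only through Col10+. So did Pf4, Acta1, Acta2, Sp7, Alpl, Ibsp, Bglap and Phex, while Foxc2 reached it only through Col2+. The counts of the lists that hold these genes are thus partly set by the floor and are no support. The part of blood cells in the values of genes they share with endothelium, such as Stab1, Cd93, Fli1 and Tal1, was not tested.

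The genes were also set against Cdh5 of the same column, a ratio that the scaling of a column does not change. These ratios are descriptions with no test, and tissue cannot be told apart from library kit, RNA input, strain and age between the osteoblast and rib columns. Stab2 was at 0.00488 and 0.00966 of Cdh5 in the Runx2_cHom_KO libraries, at 0.0115 and 0.0184 in the Runx2_cHet_KO libraries and at 0.191 in the Col10+ sort. Plvap was at 0.196 and 0.392 in Runx2_cHom_KO, at 0.363 and 0.335 in Runx2_cHet_KO and at 0.740 in Col10+. Angpt2, the ligand that vessel sprouts release, ran the other way, at 1.05 and 1.71 in Runx2_cHom_KO, at 1.86 and 7.01 in Runx2_cHet_KO and at 0.156 in Col10+. Cd34 was at 3.42 and 4.32 in Runx2_cHom_KO, at 1.42 and 12.6 in Runx2_cHet_KO and at 0.353 in Col10+. Within the osteoblasts the ratios of Pecam1 (0.465 to 0.705), Tie1 (0.128 to 0.163) and Icam2 (0.0901 to 0.179) to Cdh5 varied less than 2-fold over the 4 libraries. Emcn (0.165 to 0.326) and Sox18 (0.0781 to 0.122) did so too. Others varied more, among them Sox7 (0.0380 to 0.168), Cldn5 (0.0948 to 0.394), Esam (0.125 to 0.476), Egfl7 (0.193 to 1.17) and Rasip1 (0.120 to 0.509). Of the 4 osteoblast libraries, Runx2_cHet_KO library 2, where Cdh5 was lowest, held the highest ratio for many of the genes. Among them were Cd34, Angpt2, Eng, Erg, Fli1, Ets1, Esam, Egfl7, Rasip1 and Tek. Tek was at 0.419 and 0.576 of Cdh5 in Runx2_cHom_KO and at 0.141 and 0.621 in Runx2_cHet_KO.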

How the data were processed

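RNA sequencing values were deposited for 10 libraries. Per the labels' protocols, a SMARTer Stranded Pico kit and 1.7 ng of RNA were used for osteoblasts, a TruSeq kit and 100 ng for chondrocytes. Both deposited tables hold FPKM, per the file headers. The submitters' processing notes name TopHat2 2.1.0, Cufflinks, Cuffdiff 2.2.1 and build mm9, with no order. How the 3 chondrocyte replicates were combined, and whether strand was used, is not stated in the labels. FPKM is relative to all mapped fragments, so very abundant genes lower the rest: the 20 most abundant rows held between 26.5% and 50.8% of the summed FPKM of a column.

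Rows without a gene name (3444, chondrocytes only, 8.48% of the Col2+ and 17.0% of the Col10+ sum) or with a calendar date as name (26 osteoblast, 25 chondrocyte) were left out, as was 1 chondrocyte column that matched no sample. Where a name had several rows, such as Rasip1, its most abundant row was taken. Tests used limma 3.58.1 in R 4.3.3 with trended and robust variances on log2(FPKM + 1), which understates changes of low genes, with Benjamini-Hochberg adjustment over all genes tested. The fit was tested on simulated data. Libraries sharing a replicate number did not deviate together (correlation -0.05 across genes). Depth was unknown, so no counting interval was computed. The genes and the 10 marker lists were chosen with earlier results of these data known. All endothelial cell genes were named, with up to 6 called genes of other lists by size of change and up to 2 others by level; further markers at low level were named after their values were seen. Promoters are from RefSeq tables of build GRCm38.p6. Alternatives were another pseudocount, no filter, centred columns, summed rows, each library left out, a replicate block and another floor.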

Additional observations from a re-analysis of the deposited data

How the results depend on the processing

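Tek was called higher under every alternative that kept all 4 libraries (adjusted p between 0.00957 and 0.0287). With no filter on low values limma called 153 genes higher and 95 lower, and 1 endothelial cell gene, Tek, higher; Cd34 and Esam then missed the threshold. The labels do not say that a replicate number marks a shared source, and with the replicate number as a block 174 genes were called higher and 119 lower. In that replicate block fit 2 endothelial cell genes were called higher, Tek and Cldn5. With 1 library left out the counts over all genes ran from 0 to 399 higher and from 0 to 271 lower, and those of endothelial cell genes from 0 to 12 higher and from 0 to 1 lower. Leaving out 1 library turned the sign of 5 genes that were not called: Erg ran from -0.17 to 0.44, Fli1 from -0.28 to 0.76, Lyve1 from -0.073 to 1.44, Angpt1 from -0.21 to 0.94 and Stab1 from -2.19 to 0.57. In the rib sorts a floor of 1 FPKM in place of 5 gave 1940 genes higher and 1282 lower over all genes, and 25 endothelial cell genes higher and 0 lower. Centring the columns put the chondrocyte median over genes at 5 FPKM or more at -0.19, against -0.31 as deposited, and added Mmrn2. A pseudocount of 0.1 left the counts of endothelial cell genes as they were, 3 higher in the osteoblasts and 14 in the rib sorts. Genes under about 1 FPKM rest on few reads, and their ratios are the least precise.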
